A study of Caenorhabditis elegans with 27 samples.

Results

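This comparison asked what small RNAs (sRNAs) did when PUP-4 was removed from *C. elegans* that already lacked PUP-1, PUP-2 and PUP-3. The quadruple mutants carried the deletion *pup-4(om141)* on top of *pup-1/-2(om129)* and *pup-3(tm5089)*, and they were set against triple mutants, which carry the same *pup-1/-2(om129)* and *pup-3(tm5089)* alleles and an unedited *pup-4*. The members were chosen by the library labels and comprised 6 of the 27 sRNA-seq libraries, 3 per genotype. All libraries came from whole hermaphrodites collected on day 1 of adulthood after growth at 22°C. The *pup-4(om141)* single mutant (3 libraries) and the N2 wild type (6 libraries) served for a second measure of *pup-4* loss, and the *pup-1(tm1021)*, *pup-2(tm4344)*, *pup-3(tm5089)* and *pup-1/-2(om129)* strains (3 libraries each) entered the same fit. The triple and the quadruple mutant were each represented by 1 strain that had been kept over a balancer chromosome, so loss of *pup-4* and any other difference between the strains cannot be told apart. The study's methods describe the replicates as independent and the strains as grown in parallel, and the labels name no cultures or batches.

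Poly(U) polymerases (PUPs) are terminal nucleotidyltransferases that add uridines to RNA 3′ ends. *C. elegans* siRNAs are mostly 22G RNAs, which RNA-dependent RNA polymerases make antisense to mRNAs and which Argonaute proteins bind. The siRNAs of a gene are thus a readout of small RNA pathways acting on that gene and not a direct measure of its mRNA level. Because mRNAs are the templates, the study considers it likely that changes in mRNA levels add to changes in siRNA levels. The piRNAs (21U RNAs) are made from their own loci in the germ line, and miRNAs are cut from hairpin precursors. Counts in this comparison include tailed and untailed reads alike.

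Depth differed between the genotypes. The quadruple libraries held 10362815, 17562388 and 11999933 counts, against 1227729, 5949659 and 6691898 in the triple libraries, and a floor of 3 counts was 0.144 to 0.253 CPM in the quadruple and 0.391 to 2.01 CPM in the triple libraries. These floors cover counting error only. Levels are given as CPM, counts scaled to a common library size after TMM normalization. A sRNA was called differentially abundant (DA) when its absolute log2 fold change was over 1 and its p, adjusted by Benjamini-Hochberg over all tested sRNAs, was under 0.05. The table holds neither the siRNAs of *pup-4* nor those of *pup-2*, which were not analysed here, so the gene that separates the genotypes could not be used to check the labels.

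Of the sRNAs called between the quadruple and the triple mutant, most lower ones were siRNAs from a single stretch of chromosome V, and the higher ones came from all chromosomes. Of 9645 sRNAs tested, 59 were DA (0.612%), 35 higher in the quadruple than in the triple mutant (0.363%) and 24 lower (0.249%), by edgeR's quasi-likelihood test. siRNAs made up 34 of the higher and 23 of the lower sRNAs, the others were the piRNAs *21ur-4516* (higher) and *21ur-10492* (lower), and none of 157 tested miRNAs was DA. Without the fold threshold 68 sRNAs passed the adjusted p, and 1366 had an unadjusted p under 0.05. In all 59 DA sRNAs the quadruple and triple libraries did not overlap, which was also true of 32.5% of all tested sRNAs. Summed over the 35 higher sRNAs, the mean level was 1438 CPM in the quadruple and 409.8 CPM in the triple mutant, and over the 24 lower sRNAs it was 355.7 CPM in the quadruple and 1590.0 CPM in the triple mutant.

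The number of calls depended on the fit and on each library. It was 436 in a fit of only the 6 compared libraries, 198 with edgeR's likelihood ratio test, 189 with DESeq2, 177 with 6 factors of unwanted variation and 124 with the wild-type libraries as a pair of groups. Leaving out libraries moved it the other way. It was 30 without quadruple replicate 1, 24 without quadruple replicate 2, 28 without quadruple replicate 3, 43 without triple replicate 1, 20 without triple replicate 2 and 29 without triple replicate 3. With every library thinned to at most the smallest total among the 6 libraries, 31 sRNAs were called, 10 higher and 21 lower. 12 of the 59 stayed DA under every alternative that gave them a value, of which 9 were lower siRNAs from a single stretch of chromosome V, 2 were lower siRNAs from elsewhere (*lec-6* and *Y61A9LA.4*) and 1 was higher (*klp-11*).

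**Figure D1:**
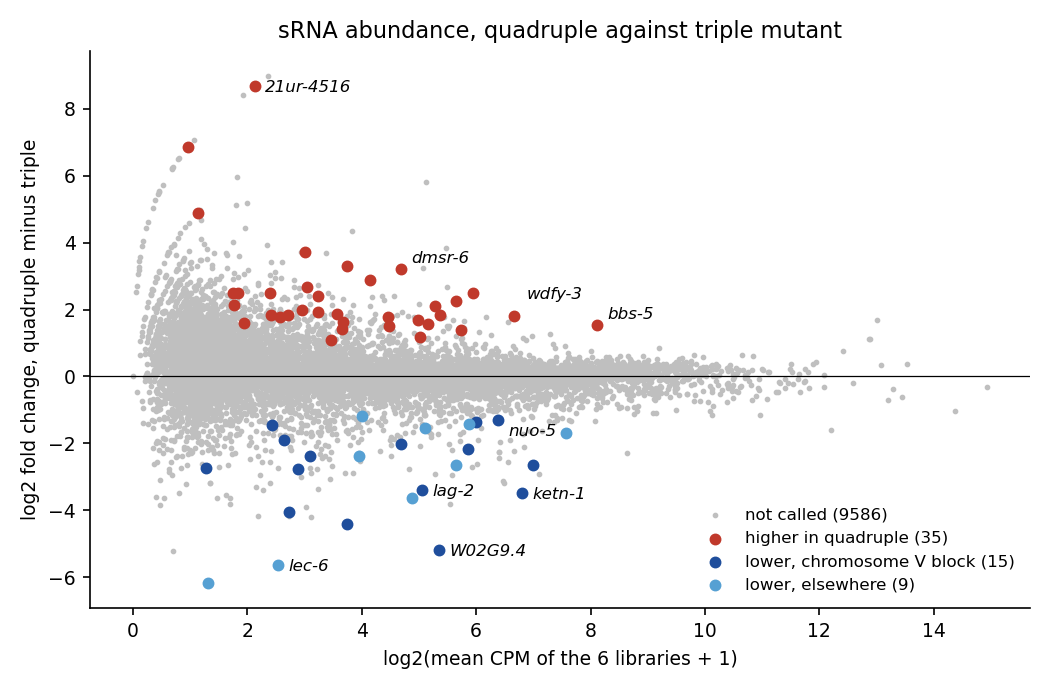
Log2 fold change of each tested sRNA, quadruple minus triple mutant, against the log2 of its mean CPM over the 6 libraries plus 1. Red points are the 35 DA sRNAs higher in the quadruple mutant, dark blue points the 15 lower siRNAs of the chromosome V block, light blue points the other 9 lower sRNAs, and grey points the remaining sRNAs.

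The lower siRNAs clustered on chromosome V. In WBcel235 coordinates, 15 of the 24 lower sRNAs (62.5%) were siRNAs of genes that start between 2.5 and 3.5 Mb of that chromosome, a window drawn after the values were seen, and the DA genes in it spanned 893.5 kb. Of 51 tested siRNAs in the window, 15 were lower and 0 higher (29.4% called), against 8 lower and 34 higher of 7133 siRNAs outside it (0.589% called). The median log2 fold change of the 51 was -0.94 and 43 of them lay below 0, whereas the median over all tested sRNAs was 0.10. By 0.5 Mb steps the median was 0.27 from 2 to 2.5 Mb, -1.08 from 2.5 to 3 Mb, -0.84 from 3 to 3.5 Mb, -0.21 from 3.5 to 4 Mb and 0.03 from 4 to 4.5 Mb. Among the 201 steps of this size across the genome that held at least 10 tested siRNAs, all except the 2 between 2.5 and 3.5 Mb of chromosome V had medians between -0.30 and 0.58 and no more than 2 lower DA siRNAs each. The window lies on a different chromosome from all 4 *pup* genes, which are on chromosomes I (*pup-3*), II (*pup-4*) and III (*pup-1* and *pup-2*).

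**Figure D2:**
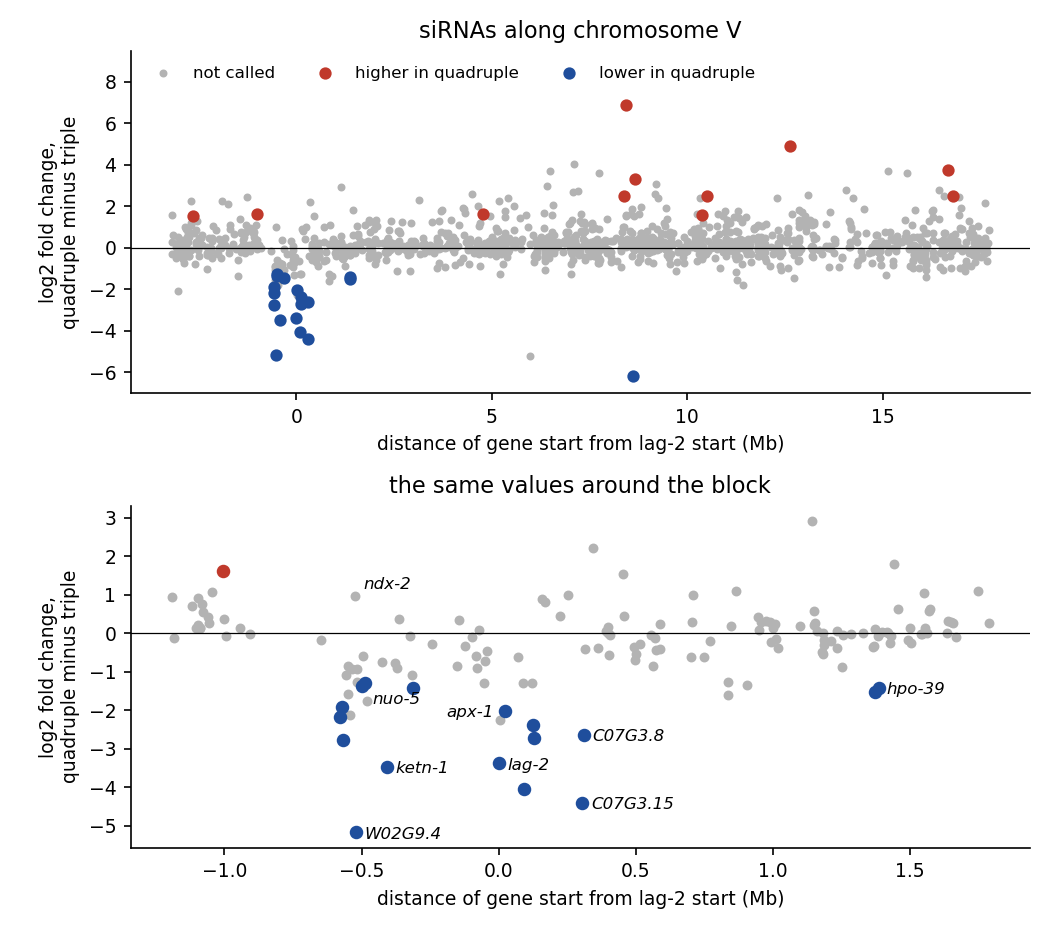
Log2 fold change (quadruple minus triple mutant) of the siRNAs of each tested chromosome V gene against the distance of the gene's start from that of *lag-2* in Mb, over the whole chromosome (top) and around the block (bottom). Blue points are DA and lower in the quadruple mutant, red points DA and higher, grey points not called. All 15 DA siRNAs of the block lie below 0, and *ndx-2*, inside the block, lies above 0 without being called.

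The largest fall among siRNAs that averaged at least 10 CPM in the triple mutant was in this block. These were the siRNAs of *W02G9.4* (V:2666900-2670226), which had 2.02, 2.26 and 2.12 CPM in the quadruple mutant, against 56.3, 111.6 and 64.8 CPM in the triple mutant. The quadruple libraries lay within a narrow range far below every triple library (log2 fold change -5.17 ± 0.44 (SE), edgeR adjusted p = 2.64e-07). *ketn-1* (V:2781939-2807860) encodes kettin, an actin-binding protein of muscle sarcomeres, and its siRNAs had 20.8, 16.5 and 17.99 CPM in the quadruple mutant, against 139.4, 290.3 and 181 CPM in the triple mutant (log2 fold change -3.47 ± 0.42 (SE), edgeR adjusted p = 4.23e-05). For both genes the triple mutant was the strain that stood apart. *W02G9.4* averaged 1.05 CPM in the *pup-1/-2* double mutant, 1.94 CPM in the *pup-4* mutant and 2.28 CPM in wild type. *ketn-1* averaged 7.24 CPM in the double mutant, 12.9 CPM in the *pup-4* mutant and 22.4 CPM in wild type.

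A pair of nearby genes in the block encode DSL-family ligands of Notch receptors. *lag-2* (V:3188343-3190115) encodes the ligand that the distal tip cell presents to GLP-1 on germline stem cells, and its siRNAs had 4.46, 5.92 and 6.52 CPM in the quadruple mutant, against 46.9, 82.7 and 46.7 CPM in the triple mutant (log2 fold change -3.39 ± 0.46 (SE), edgeR adjusted p = 2.86e-04). *apx-1* (V:3210196-3223221), a ligand first known from cell signalling in the early embryo, had 9.43, 10.2 and 9.70 CPM in the quadruple mutant, against 40.2, 48.2 and 30.9 CPM in the triple mutant (log2 fold change -2.02 ± 0.23 (SE), edgeR adjusted p = 4.23e-05). The strains ordered differently for the 2 ligands. *lag-2* siRNAs averaged 124 CPM in the *pup-4* mutant and 137 CPM in wild type, both above the triple mutant, and 4.38 CPM in the double mutant, close to the quadruple mutant. *apx-1* siRNAs averaged 9.03 CPM in the double mutant, 14.3 CPM in the *pup-4* mutant and 16.05 CPM in wild type, all below the triple mutant.

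The remaining well-supported members of the block have varied functions. *nuo-5* (V:2698972-2706984), which encodes a subunit of mitochondrial complex I, had 50.8, 46.5 and 46.5 CPM in the quadruple mutant, against 109, 137 and 104 CPM in the triple mutant (log2 fold change -1.29 ± 0.15 (SE), edgeR adjusted p = 4.23e-05), and the quadruple mean of 47.9 CPM was near the 45.6 CPM of the double mutant. *sknr-1* (V:2622056-2625460), named for its relation to the transcription factor gene *skn-1*, had 1.60, 1.35 and 1.98 CPM in the quadruple mutant, against 9.38, 11.8 and 12.4 CPM in the triple mutant (log2 fold change -2.77 ± 0.47 (SE), edgeR adjusted p = 0.00315). *arrd-19* (V:3313244-3315516), an arrestin-domain gene, had 2.19, 2.31 and 2.97 CPM in the quadruple mutant, against 4.69, 17.3 and 15.6 CPM in the triple mutant (log2 fold change -2.38 ± 0.40 (SE), edgeR adjusted p = 0.00321). In these 3 genes the quadruple libraries lay close together, whereas triple replicate 1 was the lowest triple library for *sknr-1* and *arrd-19*. *C07G3.8* at the right end of the block had 31.2, 37.9 and 36.6 CPM in the quadruple mutant, against 154, 257 and 243 CPM in the triple mutant (log2 fold change -2.63 ± 0.41 (SE), edgeR adjusted p = 0.00137), and *Y45G12B.3* had 34.3, 35.8 and 34.8 CPM in the quadruple mutant, against 94.5, 86.5 and 89.2 CPM in the triple mutant (log2 fold change -1.36 ± 0.21 (SE), edgeR adjusted p = 9.83e-04). For *C07G3.8* the wild-type mean of 362 CPM was above the triple mean of 218 CPM. Its level also varied within other strains, with 37.2, 140 and 113 CPM in the double mutant and 291, 303 and 84.5 CPM in the *pup-4* mutant.

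**Figure D3:**
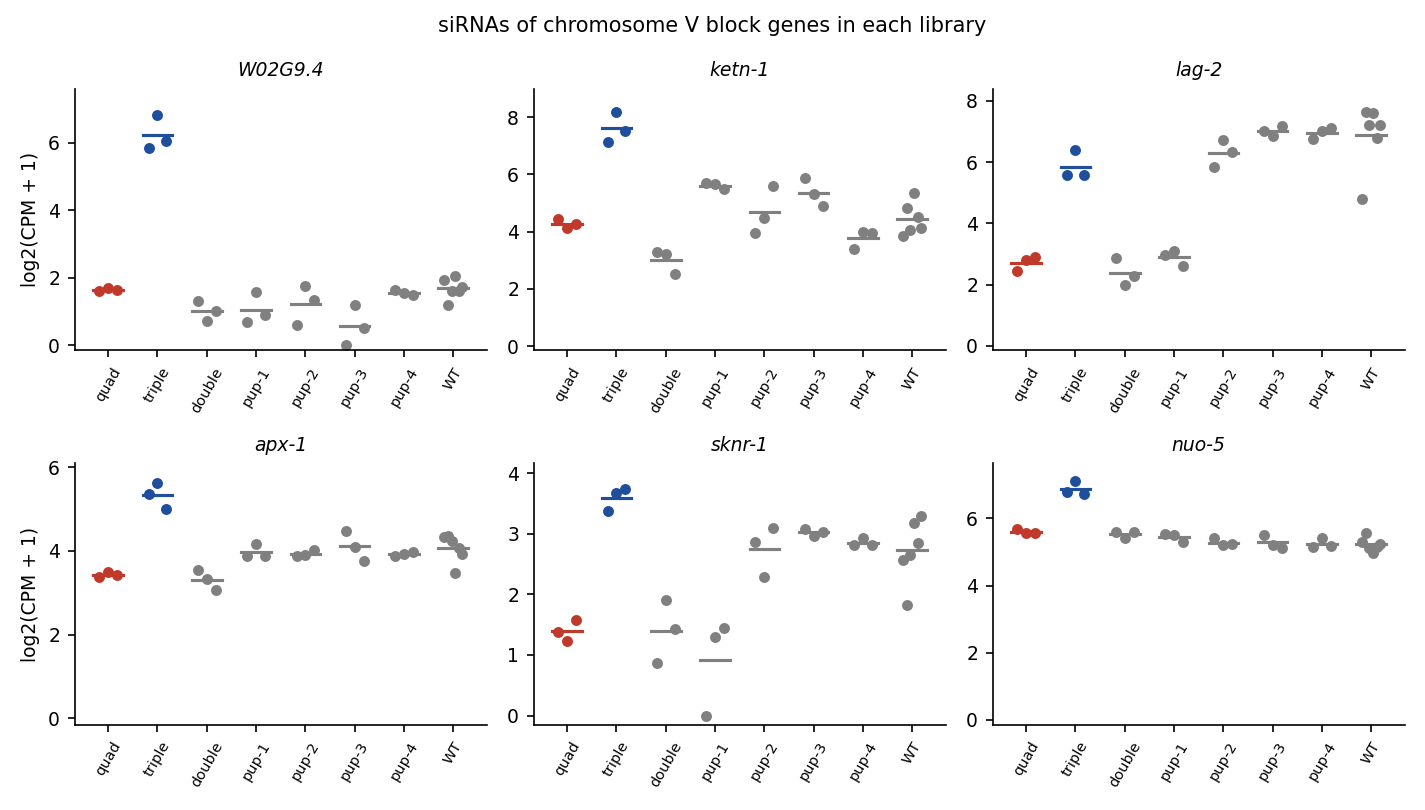
Level of the siRNAs of 6 block genes as log2(CPM + 1) in every library of the 8 strains, quadruple (red) and triple mutant (blue) first. Points are libraries and bars are strain means of the plotted values. The triple libraries stand above all other libraries for *W02G9.4*, *ketn-1*, *apx-1*, *sknr-1* and *nuo-5*, while for *lag-2* the *pup-2*, *pup-3*, *pup-4* and wild-type means are higher still.

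The other 6 DA siRNAs of the block each lost their call when 1 or more single libraries were left out. They were those of *C07G3.15* (1.09, 1.45 and 0.779 CPM in the quadruple and 14.1, 30.4 and 26.2 CPM in the triple mutant), *T28A11.2*, *F35F10.1*, *acr-17* (a nicotinic acetylcholine receptor subunit), *F53E10.1* and *F37B4.10*. Their log2 fold changes ran from -4.40 for *C07G3.15* to -1.44 for *F37B4.10*. Without single libraries the block held 9 lower DA siRNAs (without quadruple replicate 1), 10 (without quadruple replicate 2, quadruple replicate 3 or triple replicate 2), 11 (without triple replicate 3) and 14 (without triple replicate 1), and 0 higher in each case.

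Most of the block's siRNAs were more abundant in the triple mutant than in any other strain. Of its 51 tested siRNAs, 29 had their highest strain mean in the triple mutant, including 11 of the 15 DA ones, against 5.28% of all tested siRNAs. The window and the DA siRNAs were chosen on a level higher in the triple than in the quadruple mutant. That choice favours the triple mutant as highest strain, so the 5.28% is not a like background. Relative to the mean of the triple libraries, the median log2 level over the block was -0.97, -0.90 and -0.78 in the quadruple libraries, against -0.19, 0.09 and 0.001 in the triple libraries. In the 21 libraries of the other strains this median ran from -1.18 to -0.45, a range that contains all 3 quadruple values. Not every gene of the block followed. *ndx-2*, a Nudix hydrolase gene between *angl-1* and *W02G9.4*, had 228, 204 and 214 CPM in the quadruple mutant, against 81.8, 127 and 116 CPM in the triple mutant (log2 fold change 0.98 ± 0.29, edgeR adjusted p = 0.132), opposite in sign to its neighbours but not DA. *angl-1* averaged 271 CPM in the quadruple and 520.4 CPM in the triple mutant and passed the adjusted p (0.00137 by edgeR) but not the fold threshold.

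The 9 lower sRNAs outside the block came from chromosomes II, III, V and X. *lec-6* (III:599510-600366), which encodes a galectin, had 0.0840, 0.0960 and 0.354 CPM in the quadruple mutant, against 6.70, 11.7 and 9.65 CPM in the triple mutant (log2 fold change -5.63 ± 0.68 (SE), edgeR adjusted p = 4.23e-05). The quadruple values of *lec-6* were 1, 2 and 5 counts, around the floor of 3 counts, so the size of its fold change is uncertain. Its siRNAs averaged 7.48 CPM in the *pup-1* mutant, 5.80 CPM in the double mutant and 0.192 CPM in wild type. *F54C9.7* had 1.60, 5.20 and 5.88 CPM in the quadruple mutant, against 24.1, 73.6 and 59.9 CPM in the triple mutant and *F07A11.1* had 15.99, 11.7 and 13.1 CPM in the quadruple mutant, against 34.2, 60.04 and 159.7 CPM in the triple mutant. Both averaged higher in the double mutant than in wild type, at 48.7 CPM in the double mutant and 5.77 CPM in wild type for *F54C9.7*, and at 141 CPM in the double mutant and 7.16 CPM in wild type for *F07A11.1*. The most abundant was *F41G4.7*, with 127, 85.2 and 56.7 CPM in the quadruple mutant, against 266, 359 and 239 CPM in the triple mutant (log2 fold change -1.69 ± 0.31 (SE), edgeR adjusted p = 0.00693). A pair of genes at about 4.56 to 4.57 Mb of chromosome V, outside the block, also fell, with *hpo-39* at 40.2, 24.9 and 27.8 CPM in the quadruple mutant, against 99.9, 70.1 and 81.8 CPM in the triple mutant and *Y61A9LA.4* at 16.8, 16.7 and 18.8 CPM in the quadruple mutant, against 38.9, 61.1 and 49.3 CPM in the triple mutant. *C35D10.17* completed the siRNAs at well-counted genes, with 9.35, 7.70 and 10.8 CPM in the quadruple mutant, against 16.8, 24.6 and 20.6 CPM in the triple mutant. *D2023.3* was at or under 3 counts in every quadruple library and had 6.03, 1.58 and 1.17 CPM in the triple mutant, so that its level was at least 14.4-fold lower in the quadruple mutant. That bound uses 3 counts averaged over the quadruple libraries, and it was 6.77-fold without triple replicate 1. Of these siRNAs, *F54C9.7* lost its call without quadruple replicate 1, quadruple replicate 2 or triple replicate 2, *F41G4.7* without quadruple replicate 2, quadruple replicate 3 or triple replicate 2, *hpo-39* without quadruple replicate 2, *C35D10.17* without quadruple replicate 2 or triple replicate 2, *F07A11.1* when any 1 quadruple replicate or triple replicate 3 was left out, and *D2023.3* when any 1 library was left out.

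The 35 higher sRNAs came from all 6 chromosomes, with no more than 3 in any 0.5 Mb step. Chromosome V held 11 of the 34 higher siRNAs. Of its 1239 tested siRNAs outside the block 1.13% were called in either direction, beside 0.589% of all siRNAs outside the block. Genes of cilia were among the best counted. *klp-11* (IV:8756735-8762066) encodes a motor subunit of kinesin-II, which carries cargo along ciliary microtubules, and its siRNAs had 57.1, 68.5 and 63.8 CPM in the quadruple mutant, against 10.1, 19.2 and 21.6 CPM in the triple mutant (log2 fold change 1.83 ± 0.25 (SE), edgeR adjusted p = 2.40e-04). *bbs-5* (III:10258831-10261782) encodes a subunit of the BBSome, a complex of ciliary transport, and had 536, 393 and 296 CPM in the quadruple mutant, against 114, 157 and 150.1 CPM in the triple mutant (log2 fold change 1.54 ± 0.24 (SE), edgeR adjusted p = 0.00137). The order of strains differed between them. For *klp-11* the quadruple mean of 63.1 CPM lay between the triple mean of 16.98 CPM and the 136 CPM of wild type, whereas for *bbs-5* the quadruple mean of 409 CPM was the highest of all strains, with 239.7 CPM in the double mutant and 157 CPM in wild type. The other 11 tested siRNAs of the 13 in the list of cilia genes were not DA, and the median log2 fold change of the 13 was 0.40.

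Other higher siRNAs were those of genes with varied functions. *dmsr-6* (II:14455632-14464933), a G protein-coupled receptor gene, had 47.1, 36.9 and 49.6 CPM in the quadruple mutant, against 4.02, 3.62 and 6.39 CPM in the triple mutant (log2 fold change 3.20 ± 0.55 (SE), edgeR adjusted p = 0.00372). *nhr-58* (V:532259-534070), a nuclear hormone receptor gene, had 36.7, 33.9 and 25.4 CPM in the quadruple mutant, against 6.70, 10.2 and 14.7 CPM in the triple mutant (log2 fold change 1.52 ± 0.28 (SE), edgeR adjusted p = 0.0062). The gap junction gene *inx-13* had 12.96, 12.3 and 12.5 CPM in the quadruple mutant, against 1.34, 2.36 and 1.83 CPM in the triple mutant (log2 fold change 2.68 ± 0.48 (SE), edgeR adjusted p = 0.0051). In all 3 the quadruple libraries were well above the triple libraries, but *dmsr-6* and *nhr-58* lost their call without triple replicate 2 and *inx-13* without triple replicate 3. *wdfy-3*, a gene for a protein with WD repeats and a FYVE domain, had 145, 158 and 164 CPM in the quadruple mutant, against 48.9, 41.3 and 42.5 CPM in the triple mutant (log2 fold change 1.82 ± 0.38 (SE), edgeR adjusted p = 0.0229), and it lost its call when any single library was left out. *smg-8*, a factor of nonsense-mediated mRNA decay, had 42.7, 46.7 and 41.5 CPM in the quadruple mutant, against 17.4, 19.4 and 20.9 CPM in the triple mutant (log2 fold change 1.17 ± 0.23 (SE), edgeR adjusted p = 0.0127), and it lost its call without quadruple replicate 2 or any triple replicate. *Y18H1A.14* had 81.5, 101 and 127 CPM in the quadruple mutant, against 22.1, 11.7 and 21.5 CPM in the triple mutant and lost its call without triple replicate 2.

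**Figure D4:**
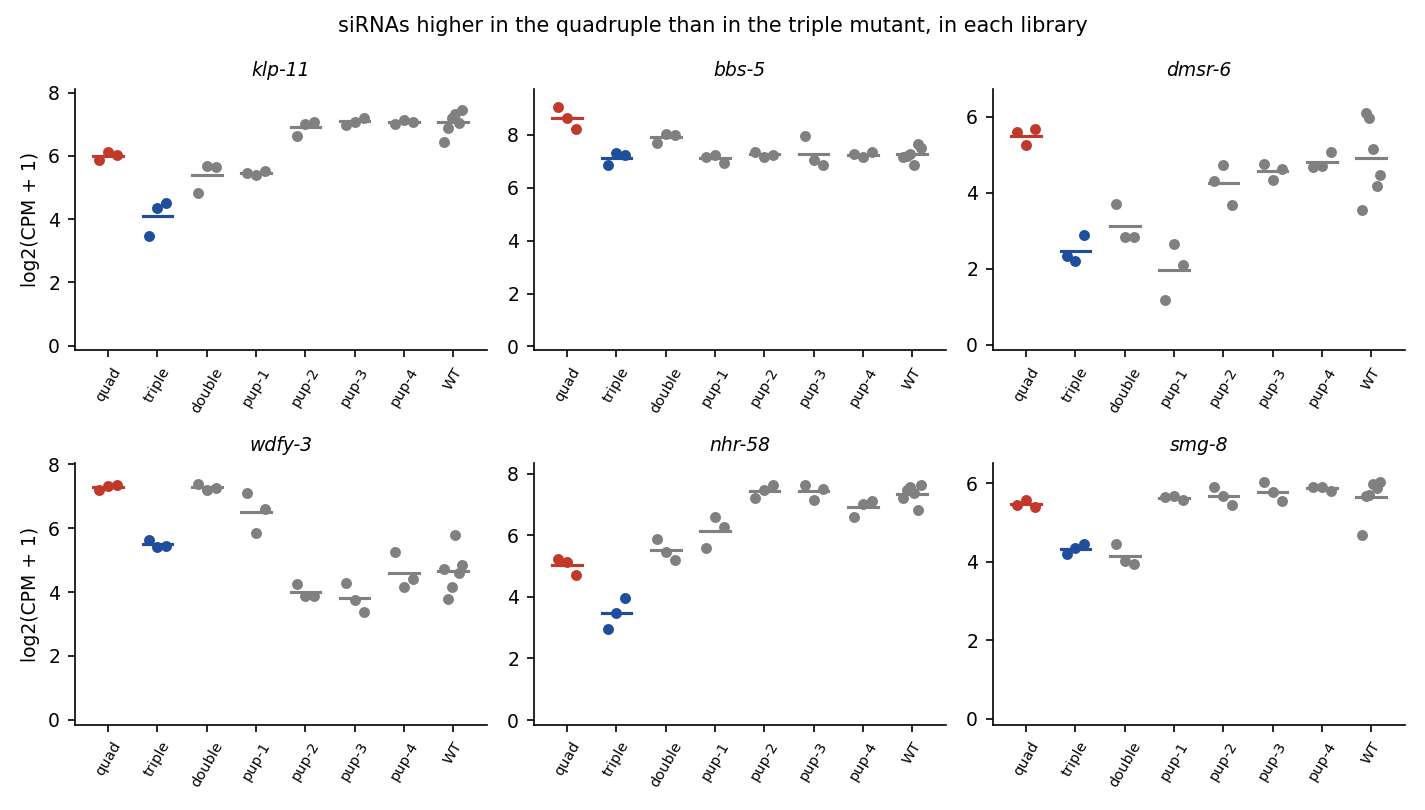
Level of the siRNAs of 6 genes that were DA and higher in the quadruple mutant, as log2(CPM + 1) in every library of the 8 strains, quadruple (red) and triple mutant (blue) first. Points are libraries and bars are strain means of the plotted values. The quadruple libraries lie above the triple libraries in each panel, and the other strains fall above, between or below them depending on the gene.

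The 35 higher sRNAs were called for a level above that of the triple mutant. This alone favours the triple mutant as their lowest strain and the quadruple mutant as their highest. Of the 35, 19 had their lowest strain mean in the triple mutant and 13 their highest in the quadruple mutant. *F16F9.4* illustrates the first kind, with 70.0, 82.7 and 76.0 CPM in the quadruple mutant, against 26.1, 29.0 and 31.6 CPM in the triple mutant and 214 CPM in wild type. *Y41C4A.12* had 51.3, 95.003 and 98.5 CPM in the quadruple mutant, against 11.4, 16.5 and 21.3 CPM in the triple mutant and 138 CPM in wild type. *orai-1*, the gene of a store-operated calcium channel, had 80.1, 62.5 and 38.7 CPM in the quadruple mutant, against 31.5, 7.56 and 6.91 CPM in the triple mutant and 5.21 CPM in wild type, which was the second kind. *marc-5* had 31.2, 20.8 and 34.3 CPM in the quadruple mutant, against 8.04, 2.84 and 2.22 CPM in the triple mutant and 2.19 CPM in wild type, and *R13H4.5* had 34.3, 9.68 and 23.0 CPM in the quadruple mutant, against 2.01, 3.78 and 0.913 CPM in the triple mutant and 4.30 CPM in wild type. Further higher siRNAs of this size were those of *Y116F11B.9* (log2 fold change 3.73 ± 0.76), *R193.2* (2.39 ± 0.56), *Y38F1A.8* (1.98 ± 0.41), the chemoreceptor gene *sre-51* (1.92 ± 0.43) and *zeel-1* (1.87 ± 0.40), whose product is the antidote of a toxin-antidote pair. Each of the sRNAs in this paragraph lost its call without at least 3 of the 6 libraries, taken one at a time. For 3 higher sRNAs every triple library was at or under 3 counts, and the level in the quadruple mutant was at least 7.02-fold higher for *21ur-4516*, at least 2.45-fold higher for *F54B8.4* and at least 1.95-fold higher for *piit-1*, with 3 counts averaged over the triple libraries as the floor. Without triple replicate 1, the shallowest library, these bounds were 15.6-fold for *21ur-4516*, 5.43-fold for *F54B8.4* and 4.34-fold for *piit-1*, and without quadruple replicate 1 that of *21ur-4516* was 2.54-fold. *21ur-4516* rested mostly on 1 library, with 15.3, 3.03 and 1.84 CPM in the quadruple mutant.

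Most functional groups held no DA siRNA. At the 0.793% called over all tested siRNAs, a list of 47 or fewer would more often than not hold 0, so such zeros do not set a list apart. The calls that fell in the 23 lists of siRNA target genes were *klp-11* and *bbs-5* of 13 cilia genes, *nhr-58* and *nhr-101* of 78 nuclear hormone receptor genes, *fbxa-43* of 135 F-box genes and *sre-51* of 61 chemoreceptor genes, all higher, and *nuo-5* of 21 respiratory chain genes, which was lower. *nhr-101* had 8.33, 6.69 and 6.59 CPM in the quadruple mutant, against 1.34, 0.473 and 1.96 CPM in the triple mutant and *fbxa-43* had 2.95, 4.72 and 4.11 CPM in the quadruple mutant, against 0.670, 0.788 and 1.04 CPM in the triple mutant. *nhr-101* lost its call without quadruple replicate 1 or triple replicate 2, and *fbxa-43* when any 1 library except quadruple replicate 1 was left out. These shares, 0.741% for F-box genes, 1.64% for chemoreceptor genes, 2.56% for nuclear hormone receptor genes, 4.76% for respiratory chain genes and 15.4% for cilia genes, each rest on 1 or 2 siRNAs and stand beside 0.793% of all tested siRNAs. Genes of small RNA pathways themselves had no DA siRNA, with 0 of 12 for Argonautes (median log2 fold change 0.23), 0 of 13 for RNA-dependent RNA polymerase, mutator and Dicer complex genes (0.12), 0 of 11 for piRNA pathway genes (0.06), 0 of 11 for nucleotidyltransferases and 3′ end enzymes (0.04) and 0 of 30 for P granule and germline RNA regulators (-0.01). The log2 fold change was below 0 for the siRNAs of 37 of 47 cytosolic ribosomal protein genes (median -0.22), with 0 DA, beside 2917 of 7184 tested siRNAs below 0. siRNAs of histone genes had a median of 0.46 over 25 tested, and those of cuticle collagen genes a median of -0.38 over 24 tested, again with 0 DA in either list. The remaining lists (meiosis and chromosome segregation, chromatin modifiers, major sperm proteins, spermatogenesis, MATH and BATH, C-type lectins, muscle sarcomere, heat shock proteins, proteasome, and vitellogenins and yolk) held 0 DA siRNAs, with medians from -0.03 to 0.54. The muscle sarcomere list does not include *ketn-1*, whose siRNAs were DA and lower.

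By chromosome, the siRNAs of X-linked genes were shifted more than those of autosomal genes. On X the median log2 fold change was 0.29 and 607 of 818 siRNAs (74.2%) lay above 0, against a median of 0.07 and 57.5% above 0 for 6366 autosomal siRNAs, but only 3 X-linked siRNAs were DA and higher and 1 was DA and lower. Relative to the mean of the triple libraries, the X-linked median was 0.24, 0.38 and 0.34 in the quadruple libraries, against -0.11, 0.08 and 0.06 in the triple libraries, and it was 0.25 to 0.49 in the wild-type libraries. Around the edited locus, 350 siRNAs of genes that start within 2 Mb of *pup-4* (II:7375280-7377580) were tested, of which 1 was higher and 1 lower (0.571% called), with a median of 0.14. The siRNAs of *pup-1*, listed as *cid-1*, had 792, 847 and 833 CPM in the quadruple mutant, against 818, 762 and 821 CPM in the triple mutant, and those of *pup-3* had 46.6, 38.0 and 40.7 CPM in the quadruple mutant, against 33.5, 37.5 and 25.3 CPM in the triple mutant. Neither was DA, with log2 fold changes of 0.04 ± 0.14 for *cid-1* (edgeR adjusted p = 0.927) and 0.38 ± 0.26 for *pup-3* (adjusted p = 0.52). *dpy-10*, the marker gene edited together with *pup-4*, had 3.12, 3.37 and 2.19 CPM in the quadruple mutant, against 4.02, 2.36 and 2.999 CPM in the triple mutant, which was also not DA (log2 fold change -0.04 ± 0.35).

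The same deletion on an otherwise wild-type background gave few calls. In *pup-4(om141)* against wild type, libraries that stand on neither side of the comparison above but share its fit, 5 of 9645 sRNAs were DA (0.0518%), all lower: the siRNAs of *osm-3*, a kinesin motor of cilia, *R06C1.4*, *C18D4.6*, *F31E9.6* and *F53G2.2*. None of the 5 was among the 59, but sets this small would seldom share a member even if unrelated, so this does not set the steps apart. Between quadruple and triple mutant their log2 fold changes were -0.82 for *F53G2.2*, -0.81 for *C18D4.6*, -0.31 for *osm-3*, -0.26 for *R06C1.4* and 0.05 for *F31E9.6*. For *F53G2.2* and *C18D4.6* every quadruple library lay below every triple library, which was also true of 11.5% of all tested sRNAs, and neither was DA. The wild-type libraries were themselves not alike: with replicates 4 to 6 and 1 to 3 as separate groups, a split chosen after seeing the data for which the labels name no batch, 104 sRNAs (1.08%) were DA between them by edgeR, 2 of them among the 59. Against the mean of both wild-type groups 12 sRNAs were DA in the *pup-4* mutant, 1 higher and 11 lower, and these included all 5. *osm-3* averaged 258 CPM in the *pup-4* mutant and 1279.5 CPM in wild type (log2 fold change -2.31), and 73.7 CPM in the quadruple and 91.2 CPM in the triple mutant (log2 fold change -0.31). Of the 35 higher sRNAs, 20 had the same sign in the *pup-4* single mutant, as did 15 of the 24 lower ones, and their median log2 fold changes there were 0.04 for the higher and -0.17 for the lower set. In wild-type replicates 4 to 6 minus 1 to 3, the same sign was seen for 25 of the 35 and 15 of the 24. The medians in that split were 0.40 for the higher and -0.23 for the lower set. Across all tested sRNAs, quadruple minus triple had a Pearson r of 0.19 with the wild-type split and 0.10 with *pup-4* minus wild type.

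The difference between the 2 steps was tested directly as (quadruple minus triple) minus (*pup-4* minus wild type). It was DA by the same thresholds for 16 sRNAs (0.166%), 7 positive (0.0726%) and 9 negative (0.0933%), with 627 at an unadjusted p under 0.05, and 14 of the 16 were also DA between quadruple and triple mutant. The count fell to 5 without quadruple replicate 1, 4 without quadruple replicate 2, 8 without quadruple replicate 3, 5 without triple replicate 2 and 7 without triple replicate 3, while it was 11 without triple replicate 1. With the wild-type libraries as a pair of groups it was 21, which included all 16. *W02G9.4* had -5.17 in the first step and -0.20 in the second (difference -4.97 ± 0.53, edgeR adjusted p = 2.49e-05). *lag-2* had -3.39 and -0.15 (difference -3.24 ± 0.56, adjusted p = 0.0115 by edgeR). *klp-11* had 1.83 and -0.03 (difference 1.86 ± 0.32, adjusted p = 0.0115 by edgeR). In none of these 3 genes was the second step DA. The other 2 of the 16, *F31E9.6* and *ndx-2*, were not DA between quadruple and triple mutant.

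**Figure D5:**
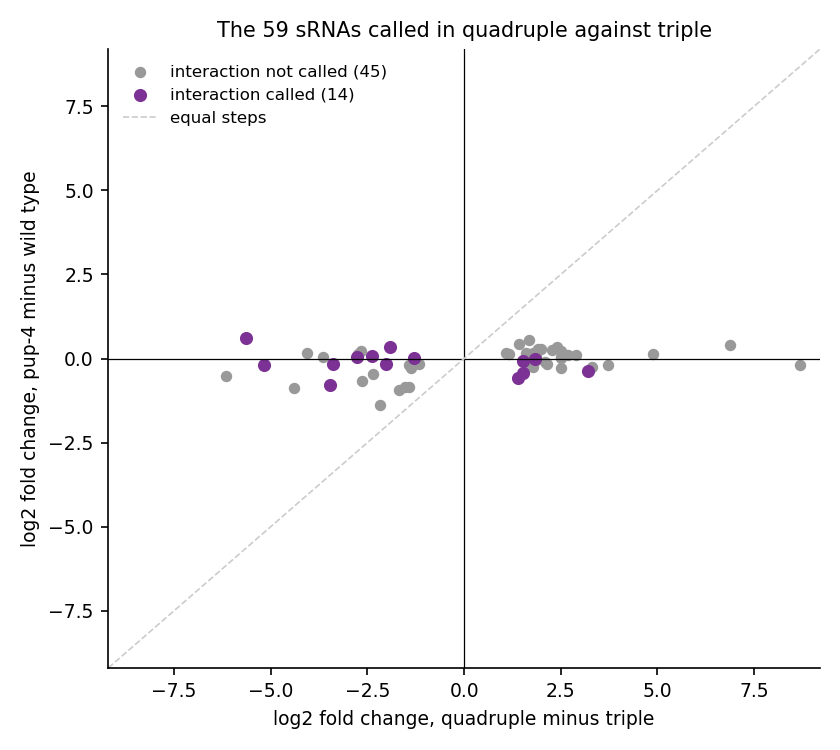
Log2 fold change of the 59 DA sRNAs in quadruple minus triple mutant (x axis) and in *pup-4* mutant minus wild type (y axis), with the line of equal steps dashed. Purple points are the 14 for which the difference between the steps was also DA, and grey points the other 45. The points spread widely along the x axis and less along the y axis, where the medians were 0.04 for the higher and -0.17 for the lower set. Of the 24 lower sRNAs, 15 also lay below 0 on the y axis, among them *acr-17* (-1.37), *F41G4.7* (-0.93) and *ketn-1* (-0.80).

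No shift in the balance between sRNA classes was detectable with 3 libraries per genotype. With the SD over 3 libraries, siRNAs took 76.1% ± 4.0 of counts in quadruple and 74.9% ± 0.931 in triple mutants (exact permutation p = 0.7). miRNAs took 21.2% ± 3.66 in quadruple and 22.0% ± 1.16 in triple mutants (exact p = 0.8), and piRNAs 2.68% ± 0.354 in quadruple and 3.04% ± 0.535 in triple mutants (exact p = 0.5). Each p was 0.8 after adjustment over the 3 classes. These two-sided tests over 20 splits cannot give a p below 0.1, so they cannot show that the shares are alike. The siRNA difference of 1.25 percentage points became 3.44 without quadruple replicate 1 and -0.49 without quadruple replicate 2, and the miRNA difference of -0.87 became -2.85 without quadruple replicate 1 and 0.76 without quadruple replicate 2. Of 2302 tested piRNAs, 2 were DA, and their median log2 fold change was 0.19. *21ur-10492* had 5.30, 4.33 and 4.11 CPM in the quadruple mutant, against 32.2, 18.3 and 22.3 CPM in the triple mutant (log2 fold change -2.36 ± 0.53 (SE), edgeR adjusted p = 0.0392) and averaged 172 CPM in wild type, and its call was lost when any 1 of the 6 libraries was left out.

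None of the miRNAs passed the test by edgeR, with 16 of 157 at an unadjusted p under 0.05. The median log2 fold change over the 157 was -0.27. The lowest adjusted p was that of *mir-257*, which had 6.57, 4.77 and 4.603 CPM in the quadruple mutant, against 12.7, 17.3 and 12.13 CPM in the triple mutant (log2 fold change -1.42 ± 0.37, edgeR adjusted p = 0.0728). Whole animals mix germ line, embryos and soma, and fewer cells of a type cannot be told apart from less RNA per cell. The *mir-35* to *mir-42* miRNAs, which are made in oocytes and embryos, all had log2 fold changes below 0 (8 of 8, beside 101 of all 157 tested miRNAs), and summed to 32257, 21674 and 31515 CPM in the quadruple libraries, against 46469, 57006 and 42277 CPM in the triple libraries. *mir-1*, the muscle miRNA, had 17234, 11824 and 8661 CPM in the quadruple mutant, against 7919.9, 1633 and 2196 CPM in the triple mutant (log2 fold change 1.68 ± 1.03, edgeR adjusted p = 0.478). For the *mir-35* to *mir-42* sum and for *mir-1* the 2 genotypes did not overlap. Taken singly, 4 of the 8 *mir-35* to *mir-42* miRNAs did not overlap, beside 45 of the 157 miRNAs, 10 above and 35 below. No member of either list was DA. The 5 miRNAs of late larval and adult soma (*let-7*, *lin-4*, *mir-48*, *mir-84* and *mir-241*) summed to 9279 to 13721 CPM in the quadruple and 13573 to 17656 CPM in the triple libraries, and piRNAs, which mark the germ line, to 20838 to 26914 CPM in the quadruple and 21691 to 31830 CPM in the triple libraries. siRNAs of major sperm protein genes summed to 335.0 to 392.1 CPM in the quadruple and 333.1 to 398.8 CPM in the triple libraries. No miRNA of the 3 marker lists was at 0 in all 6 libraries. The part of these shifts, and of the greater depth of the quadruple libraries, in the siRNA differences was not tested beyond the thinning given above, in which 12 of the 21 lower siRNAs were still those of the chromosome V block.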

How the data were processed

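The authors trimmed adapters with cutadapt, mapped reads with HISAT2 and counted them per sRNA, adding antisense reads over a gene's coding sequence to give its siRNAs. The deposited values are these raw counts, with replicates kept apart, and no filter, scaling or fold change by the authors was used. The versions of cutadapt and HISAT2 are not given in the sources used here. Of 20150 sRNA IDs, 20147 were matched to Ensembl release 115 of WBcel235 for symbols, classes and positions, which may differ from the annotation used for counting.

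Tests used edgeR 4.0.16 and limma 3.58.1, run in R 4.3.3. filterByExpr with a minimum count of 10 kept 9645 sRNAs, libraries were scaled by TMM, and a robust quasi-likelihood model over the 27 libraries held 1 coefficient per genotype, leaving 19 residual degrees of freedom. Depth was 1227729 to 17562388 counts in the 6 compared libraries. Replicates of a genotype differed beyond sampling noise. Class shares were compared by exact permutation. Chromosome, gene-list and marker summaries were not tested.

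The scripts were tested on simulated counts with known changes. A call with the wrong sign, from an extreme draw, was met there, and the allowance for such calls was set after it was seen.

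The comparison, gene lists and alternatives were chosen with earlier results of these data known. Named siRNAs were, per direction, the 12 largest changes at a mean of at least 10 CPM and the 6 most abundant, all with no overlap of libraries, plus DA piRNAs, *pup* genes, *dpy-10*, DA list members, those DA in the interaction and in the quadruple-triple comparison, and those DA in the *pup-4* mutant. Other named sRNAs, the chromosome V window and the split by X were chosen after their values were seen. Alternatives were DESeq2 1.42.0, DESeq2 size factors, total counts, the likelihood ratio test, other filters, other library or sRNA sets, 6 factors of unwanted variation, thinning, the replicate number as a block, and each library left out. Figures used matplotlib 3.10.9. miRNAs were not grouped by seed, since no sequences were used here.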

Additional observations from a re-analysis of the deposited data

Results flagged for a closer look

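Results of 2 kinds stood out. For 16 sRNAs the quadruple minus triple difference and the *pup-4* minus wild type difference were not equal by edgeR's test of the difference. The log2 differences were negative for *lec-6* (-6.24), *W02G9.4* (-4.97), *lag-2* (-3.24), *sknr-1* (-2.81), *ketn-1* (-2.67), *arrd-19* (-2.46), *F53E10.1* (-2.25), *apx-1* (-1.86) and *nuo-5* (-1.31). They were positive for *dmsr-6* (3.58), *F16F9.4* (1.98), *nhr-58* (1.96), *F31E9.6* (1.91), *ndx-2* (1.88), *klp-11* (1.86) and *bbs-5* (1.60). For *ndx-2* neither step alone was DA, and for *F31E9.6* the difference came with a fall in the *pup-4* mutant (log2 fold change -1.87) and a value near 0 between quadruple and triple mutant (0.05). *F31E9.6* siRNAs were already low in the triple mutant, with means of 9.96 CPM there, 10.35 CPM in the quadruple mutant, 30.3 CPM in the *pup-4* mutant and 110 CPM in wild type.

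Among the 61 sRNAs that were DA in either test, 8 had 1 wild-type library far from the other 5 by Dixon's criterion, which chance meets in about 1 of 20 groups. A single wild-type library was high for *nhr-101* (14.6 CPM in replicate 2, against 5.64 to 8.95 CPM in the others), *wdfy-3* (54.6 CPM in replicate 4, others 12.7 to 27.7 CPM), *F07A11.1* (12.2 CPM in replicate 4, others 5.64 to 6.86 CPM), *F54B8.4* (14.8 CPM in replicate 1, others 2.35 to 4.89 CPM), *21ur-10492* (336 CPM in replicate 1, others 98.5 to 184 CPM) and *C07G3.15* (50.8 CPM in replicate 1, others 14.1 to 21.04 CPM). It was low for *smg-8* (24.7 CPM in replicate 1, others 50.03 to 64.4 CPM) and *T24H7.8* (16.9 CPM in replicate 1, others 21.9 to 24.4 CPM). 5 of the 8 were in wild-type replicate 1. Groups of 3 libraries, such as the quadruple and triple mutant, are too small for this criterion.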

How the results depend on the processing

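All 59 DA sRNAs kept their direction in every alternative that gave them a value. As their quadruple and triple libraries did not overlap, a reversal was hardly possible. The number called moved. It was 198 (122 higher, 76 lower, 56 in the interaction) with edgeR's likelihood ratio test, 189 (109 higher, 80 lower, 54 in the interaction) with DESeq2, 177 (103 higher, 74 lower, 89 in the interaction) with 6 factors of unwanted variation, 436 (207 higher, 229 lower) in a fit of only the 6 compared libraries, and 31 (10 higher, 21 lower, 7 in the interaction) after thinning. With siRNAs alone 39 were lower. With no filter 9 were called in the interaction. Leaving out 1 replicate gave 20 to 43 in all, 6 to 18 higher, 12 to 25 lower and 4 to 11 in the interaction, and of the 59 between 19 and 37 were still called. Another 2 alternatives were added after seeing the data. Leaving out the chromosome V block gave 31 (24 higher, 7 lower, 3 in the interaction). Of the 59, 44 lie outside the block, and 13 of these lost their call when it was left out. Treating wild-type replicates 1 to 3 and 4 to 6 as separate groups gave 124 (71 higher, 53 lower, 21 in the interaction). The block's median log2 fold change stayed below 0 throughout, at -0.77 with no filter, -1.23 with only the 6 compared libraries, -1.14 with 6 factors and -1.12 after thinning, and that of X stayed above 0 (0.20 to 0.34). The cause of these shifts was not tested.

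Same-numbered quadruple and triple replicates had correlated deviations of 0.15, 0.14 and -0.07, so the numbers were not taken to pair the libraries. With a replicate block the count was 363 (194 higher, 169 lower, block median -1.22) in the 6 compared libraries and 161 (85 higher, 76 lower, 25 in the interaction) in all 27. Differences in class shares under the block had exact permutation p = 0.75 for each class, from sign flips of the same-numbered differences. With 3 such differences this test cannot give a p under 0.05, so it cannot show that the shares are alike. Quadruple replicate 3 correlated best with triple replicate 2 (0.13). In the shallowest triple library 3 counts were 2.01 CPM, so differences near that level were not detectable there.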
